A study of Mus musculus with 2 samples.

Results

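The guanylate-binding proteins are a family of large GTPases, and 9 of their genes (Gbp2b, Gbp2, Gbp3, Gbp4, Gbp5, Gbp6, Gbp7, Gbp8 and Gbp9) are described here across the cell types of mouse liver macrophage preparations. The genes were found by symbol among the 26078 genes of the deposited matrix, and all 9 had a row. They were chosen by their UMI levels per library in earlier results of these data, where members went opposite ways, so their values between libraries are a description and carry no test. The study compared 2 untreated male mice of 8 to 10 weeks, 1 labelled Spta wt/wt and 1 labelled Spta sph/sph. The labels give no strain and name no allele beyond Spta, a gene for alpha-spectrin, part of the membrane skeleton of red blood cells. Livers were digested with collagenase, and non-parenchymal cells were enriched on magnetic beads that bind F4/80, a macrophage surface protein. Single-cell libraries were made with 3' tagging chemistry, in which each captured transcript end is marked with its cell's barcode and a molecular tag, the unique molecular identifier (UMI).

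Guanylate-binding proteins are made in large amounts after exposure to interferons, above all interferon gamma, which acts through its receptor, the JAK kinases and IRF1. They assemble on the membranes around intracellular bacteria and parasites and on bacterial surfaces, break these membranes open and expose lipopolysaccharide to caspase-11, a trigger of the non-canonical inflammasome. In the liver, Kupffer cells, the resident macrophages of the sinusoids, take up bacteria and damaged red cells from the blood.

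The family lies in 2 gene clusters (GRCm38, GENCODE vM21). On chromosome 3, Gbp5 (142493978 to 142522344), Gbp7 (142530342 to 142550149), Gbp3 (142560026 to 142573209), Gbp2b (142594847 to 142619179) and Gbp2 (142620602 to 142638008) follow each other on the plus strand. On chromosome 5, Gbp8 (105014150 to 105139540), Gbp9 (105077630 to 105139539), Gbp4 (105115767 to 105139586) and Gbp6 (105270702 to 105293698) lie on the minus strand, and the models of Gbp8, Gbp9 and Gbp4 overlap each other on that strand. Reads come from transcript ends, so the 60-base words of the last 600 bases of each longest coding transcript were looked up in all other family transcripts. None of the 541 words of Gbp2b, Gbp2, Gbp3, Gbp5, Gbp7 and Gbp8 occurred in another family gene, and 1 word of Gbp9 and 19 of Gbp4 did. For Gbp6, 413 of the 541 words also occurred in Gbp10, so the low Gbp6 counts are uncertain.

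RefSeq promoter windows (GRCm38.p6, 250 bases before to 50 after a transcript start) were held for the 5 members on chromosome 3. Each of these 5 had a match to GAAANNGAAA, the core of the interferon-stimulated response element, on the strand opposite to the gene, while 3.99% of all 27025 genes with a window (3.44% of 32851 windows) held one on either strand. The matches are shown because Gbp2b and Gbp2, the pair that goes opposite ways below, hold the same letters there. Each line is 30 bases of the plus strand, with the match in capitals as it reads on that strand.
Gbp2b, chr3:142594700-142594729: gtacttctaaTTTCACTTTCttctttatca
Gbp2, chr3:142620594-142620623: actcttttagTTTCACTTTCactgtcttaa
Gbp3, chr3:142559989-142560018: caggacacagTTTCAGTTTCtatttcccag
Gbp5, chr3:142496759-142496788: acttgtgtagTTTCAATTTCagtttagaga
Gbp7, chr3:142530273-142530302: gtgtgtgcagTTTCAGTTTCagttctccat
The match began 137 bases before the start in Gbp2b and 59 bases before it in Gbp2, 45 in Gbp3, 165 in Gbp5 and 53 in Gbp7. A second, overlapping match in Gbp3 began 39 bases before the start. These are RefSeq starts, and for Gbp5 and Gbp2 the match lies inside the longer GENCODE gene span given above. Read on the minus strand, the match of Gbp2b and of Gbp2 is GAAAGTGAAA in both, a word that 0.303% of all genes with a window held. That word was picked because both genes hold it, so its share does not measure how unusual the pair is. The letters TTCNNNGAA, the core of the interferon gamma-activated site and the same on both strands, occurred at 52 and 245 bases before the start in Gbp5 and at 87 and 106 in Gbp7, against 9.55% of all genes with a window. They were not found in the windows of Gbp2b, Gbp2 or Gbp3. A match describes letters in these windows and is not evidence of binding.

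The deposited matrix joins both libraries, and barcodes end in 1 or 2. Nothing in the labels ties either ending to a mouse, so values are given for library 1 and library 2 with no genotype attached, and ratios are library 2 over library 1. With 1 mouse per genotype there is no replicate check and no p-value. All intervals are exact 95% intervals that cover counting error only. Among barcodes with 200 or more genes and no more than 20% of UMIs from mitochondria, library 1 kept 3488 of 8907 barcodes (median 2848 UMIs) and library 2 kept 6942 of 9726 (median 4597 UMIs). The libraries share 955 barcode sequences, and 815 kept barcodes of library 1 and 44 of library 2 were more than 5 times shallower than the same barcode in the other library. Cells were assigned to lineages from marker genes that include no member of the family. A Kupffer-like cell needed at least 3 of the 7 markers Clec4f, Vsig4, Cd5l, Timd4, Folr2, C1qa and Adgre1, together at least 100 per 10000 UMIs, and no other lineage's gate. There were 2187 such cells in library 1 (62.7% of kept cells, 10079484 UMIs) and 3936 in library 2 (56.7%, 27828872 UMIs), and 95 and 395 barcodes had a marker share between 90 and 110, near the limit. All 7 Kupffer markers were present in both libraries, and their sum was 20118 CPM (UMIs per 1000000 UMIs of the lineage) in library 1 and 18887 CPM in library 2. The gate uses these markers, so their presence and high sum follow from it. Singly, Clec4f (4108 and 2614 CPM), Vsig4, Timd4, Folr2 and C1qa were lower in library 2. Cd5l (6611 and 8407 CPM) and Adgre1 were higher there. Marker sums of other cell types in these cells were 260 and 87.8 CPM for monocytes, 834 and 469 CPM for endothelium, 16.9 and 226 CPM for erythroid cells and 1912 and 1438 CPM for hepatocytes; their part in the results was not tested.

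In Kupffer-like cells the family's composition differed between the libraries. Gbp2b (also called Gbp1, a GTPase of the family named for binding guanine nucleotides) was its most counted member in library 1 and was 26.0-fold lower in library 2, while its neighbour Gbp2 was 1.94-fold higher there. Gbp2b had 3169 UMIs in library 1, or 314 CPM (304 to 326), and 337 UMIs in library 2, or 12.1 CPM (10.9 to 13.5). Its log2 ratio was -4.70 (-4.86 to -4.54). Gbp2, which is recruited to parasite vacuoles and bacteria and promotes their lysis, had 518 UMIs in library 1, or 51.4 CPM (47.1 to 56.0), and 2775 UMIs in library 2, or 99.7 CPM (96.0 to 104). The log2 ratio of Gbp2 was 0.96 (0.82 to 1.09). In these cells the pair went opposite ways, although both genes stand side by side on chromosome 3. The family was chosen with such opposite directions known, so the intervals are no test of them.

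**Figure D1:**
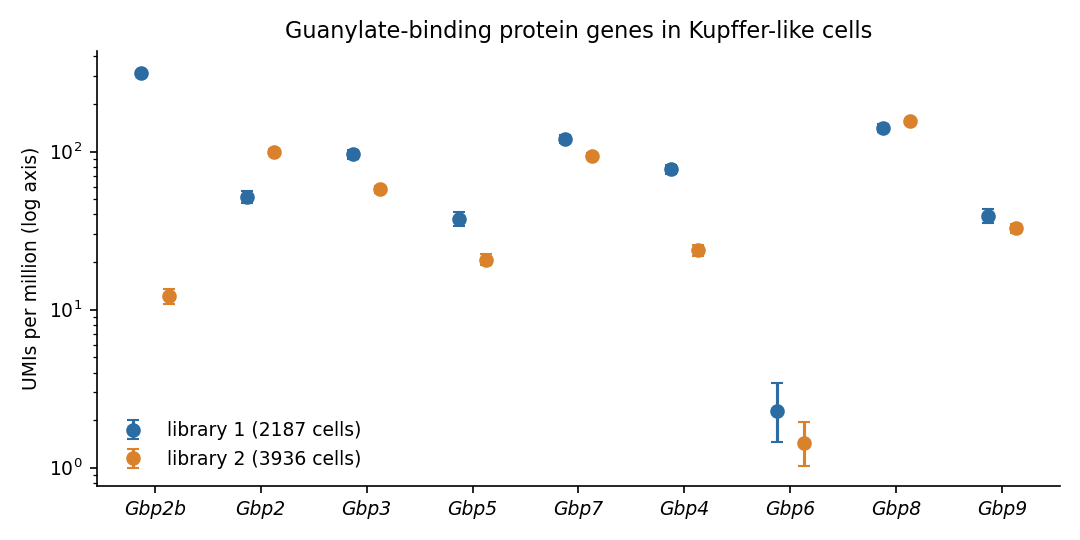
CPM of the 9 genes (log axis) in Kupffer-like cells of library 1 (blue) and library 2 (orange), with exact 95% Poisson intervals that cover counting error. Gbp2b is at 314 CPM in library 1 and 12.1 CPM in library 2, and Gbp2 lies higher in library 2 (99.7 against 51.4 CPM). Gbp8 (141 and 155 CPM) and Gbp7 (120 and 94.1 CPM) each differ by less than 2-fold between the libraries.

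Of the other members on chromosome 3, Gbp3 had 96.0 CPM in library 1 and 57.8 CPM in library 2, a log2 ratio of -0.73 (-0.85 to -0.62). Gbp5, which promotes inflammasome assembly, had 37.5 and 20.7 CPM, a log2 ratio of -0.85 (-1.04 to -0.66). Gbp7 had 120 and 94.1 CPM, a log2 ratio of -0.36 (-0.46 to -0.26). All of these were lower in library 2, by less than 2-fold. On chromosome 5, Gbp4 had 77.2 and 23.8 CPM, a log2 ratio of -1.70 (-1.85 to -1.55). Gbp9 had 39.0 and 32.6 CPM, a log2 ratio of -0.26 (-0.43 to -0.08). Gbp8 had 141 and 155 CPM, a log2 ratio of 0.14 (0.05 to 0.22), and it reversed to -0.068 with at most 10% mitochondrial UMIs. Gbp4 thus stands apart from the overlapping genes Gbp8 and Gbp9, whose levels differed little between the libraries. Gbp6 was rare, with 23 UMIs (2.28 CPM) and 40 UMIs (1.44 CPM), and its interval on the log2 scale spans 0 (-1.44 to 0.14).

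Read against all genes, 8 members reached 10 CPM in at least 1 library. None was at least 2-fold higher in library 2, where 2.47% of the 8215 genes at that level were. Both Gbp2b and Gbp4 were at least 2-fold lower, as were 9.14% of all genes, and the other 6 were within 2-fold. The median log2 ratio was -0.54 over the 8 members and -0.32 over all 8215 genes. With totals scaled by the median ratio of well-expressed genes, a shift of 0.19 on the log2 scale, 3.42% of all genes were at least 2-fold higher and 5.61% lower, and Gbp2, at a log2 ratio of 1.15, then passed 2-fold. The members were picked with these values known, so the counts describe the family and do not set it apart.

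Among the members, Gbp2b had the largest difference in CPM behind the family's sum. Summed, the 9 genes gave 879 CPM in library 1 and 497 CPM in library 2, a net difference of 382 CPM. The Gbp2b difference, 302 CPM, equals 79.1% of that net value. It is not a part of a whole, since Gbp2 and Gbp8 were higher in library 2. The other 8 together gave 565 and 485 CPM, a log2 ratio of -0.22 (-0.26 to -0.17). That is not below the median of all 8215 genes, -0.32. UMIs of 3' ends do not scale with transcript length, so shares of the family's UMIs can be set side by side, apart from differences in capture between genes. Gbp2b took 35.8% of the family's UMIs in library 1 and 2.44% in library 2. Gbp2 went from 5.84% to 20.1% and Gbp8 from 16.0% to 31.2%, so that in library 2 Gbp8 was the most counted member.

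**Figure D2:**
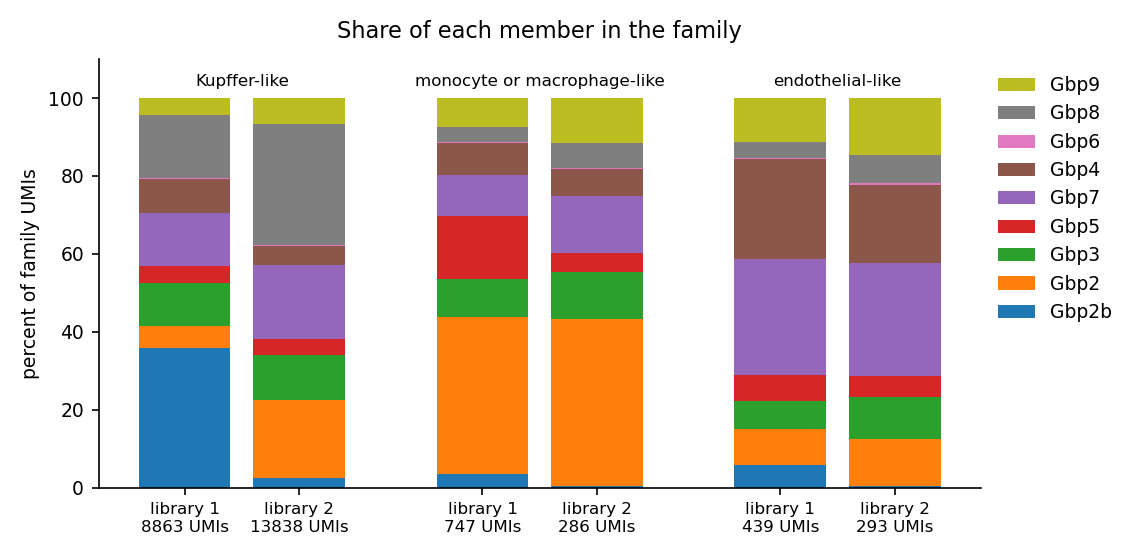
Stacked bars give each member's percent of the family's UMIs (0 to 100) in each library of 3 lineages, with the number of UMIs under each bar. The Gbp2b block (35.8% of Kupffer-like UMIs in library 1) shrinks to 2.44% in library 2, the monocyte or macrophage-like bars are led by Gbp2, and the endothelial-like bars by Gbp7 and Gbp4.

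Shares of Kupffer-like cells with a UMI differed in the same way as the summed levels. A UMI of Gbp2b was found in 52.7% of cells in library 1 and in 236 of 3936 cells (5.27% to 6.78%) in library 2. The median depth was 3621 UMIs in library 1 and 6080 in library 2, so each cell was also thinned to 2000 UMIs, leaving out 816 and 1149 shallower cells. Thinned, Gbp2b was found in 46.5% of 1371 cells (43.9 to 49.2) and in 2.15% of 2787 cells (1.65 to 2.76). Gbp2 was found in 9.63% (8.12 to 11.3) and 17.3% (15.9 to 18.7) of the thinned cells, and in 16.8% and 38.1% without thinning. These shares follow from the mean levels and the depth, so they do not separate fewer carrying cells from lower counts per cell. Among the remaining members the thinned shares were 12.6% and 4.99% for Gbp4, 18.6% and 10.5% for Gbp3, 21.7% and 18.0% for Gbp7, and 23.6% and 25.5% for Gbp8. At least 1 member was found in 80.4% of thinned cells of library 1 and in 60.9% of library 2. Erythroid-like cells of library 2, given for comparison, had 0.137% for Gbp2b, 1.23% for Gbp2, 4.38% for Gbp7 and 4.65% for Gbp8 at the same depth (731 cells, median 8020 UMIs before thinning).

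Counts were spread over many Kupffer-like cells. The 5 cells with the most Gbp2b UMIs held 2.11% of them in library 1, and 194 cells had 5 or more. For Gbp2 in library 2 the 5 highest cells held 3.75%, and 61 cells had 5 or more. In thinned cells of library 1, Gbp2b was found in 44.7% (36.0 to 53.6) of cells with a Gbp2 UMI and in 46.7% (43.9 to 49.6) of cells without one. These intervals overlap, but cells of 1 library are not replicates, and the difference was not tested. Cells with a Gbp8 UMI had Gbp2b in 54.5% (48.9 to 60.0) and those without in 44.1% (41.1 to 47.1). Gbp8 was the 1 member of 8 looked at whose pair of intervals did not meet in library 1. No test was made, and nothing allows for the 8 comparisons. In library 2 the order for Gbp8 was the other way, 1.83% with and 2.26% without, with intervals that overlap.

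Shared barcodes touch the levels of library 1. Its 492 Kupffer-like barcodes that were far shallower than their twin in library 2 (median 648 UMIs) had 8 Gbp2b UMIs, or 23.4 CPM (10.1 to 46.1), and 27 Gbp2 UMIs, or 79.0 CPM (52.0 to 115). The other 1695 had 325 CPM of Gbp2b and 50.4 CPM of Gbp2. In library 2, 25 such barcodes (median 661 UMIs) had 9 Gbp2b UMIs, or 506 CPM (231 to 961), against 11.8 CPM in the other 3911. In each library the Gbp2b level of these shallow barcodes was nearer to that of the other library. Without them the log2 ratio of Gbp2b was -4.78 and that of Gbp2 0.98.

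The Kupffer-like cells of the libraries also lay in different clusters, made without the family and the listed interferon genes. Cluster 1 held 1578 of the 2187 cells of library 1 and 19 of the 3936 of library 2, 17 of them shallow shared barcodes. Clusters 0, 2 and 3 held 1399, 1042 and 1142 cells of library 2, against 346, 92 and 24 of library 1, of which 344, 92 and 24 were shallow shared barcodes. Gbp2b was at 330 CPM in the library 1 cells of cluster 1 and at 11.6, 11.6 and 11.5 CPM in the library 2 cells of clusters 0, 2 and 3. Gbp2 was at 51.5 CPM in the former and at 104, 89.8 and 113 CPM in the latter. A difference between libraries within the Kupffer-like class therefore cannot be told apart from a difference between these clusters.

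Within library 1, Gbp2b was higher where the Kupffer marker share was higher, from 232 CPM (204 to 264) in cells at 100 to 150 markers per 10000 UMIs to 294 CPM (278 to 312) at 150 to 200 and 347 CPM (331 to 364) at 200 or more. In library 2 the same bands gave 14.0, 8.84 and 14.8 CPM of Gbp2b, with no order, and 77.3, 95.8 and 115 CPM of Gbp2. Cells above the library's median for the class II antigen-presentation genes had 334 CPM of Gbp2b in library 1 and 15.6 CPM in library 2, and cells below it 267 and 7.63 CPM. The 315 cells of library 1 with no class II UMI, which had a median of 639 UMIs, had 22.8 CPM of Gbp2b (7.4 to 53.2), and such cells of library 2 had 7.29 CPM. In library 2, cells with a UMI of Cd207, a C-type lectin also called langerin, had 25.7 CPM of Gbp2b and cells without one 10.5 CPM. The same split gave 330 and 259 CPM in library 1. Cells with a Cd207 UMI were deeper, with medians of 6327 against 921 UMIs in library 1 and 10444 against 5641 in library 2. Depth moves with these bands (median 1546 UMIs in the lowest marker band of library 1 and 3726 in the highest), and its part was not tested. All of these groups keep the shallow shared barcodes, 492 in library 1 with a median of 648 UMIs and 23.4 CPM of Gbp2b. Their part in the marker and class II differences, and among the cells with no class II UMI, was not tested either.

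In monocyte or macrophage-like cells (120 and 97) Gbp2 went the other way. Gbp2 had 300 UMIs in library 1, or 424 CPM (377 to 475), and 123 UMIs in library 2, or 228 CPM (189 to 271). Its log2 ratio was -0.90 (-1.21 to -0.59), against 0.96 in Kupffer-like cells. Gbp2 thus stood at 825% of its Kupffer-like level in library 1 and at 228% in library 2. Gbp5 had 121 UMIs (171 CPM) in library 1 and 14 UMIs (25.9 CPM) in library 2, a log2 ratio of -2.72 (-3.64 to -1.92). Gbp4 had 86.2 and 37.0 CPM, a log2 ratio of -1.22 (-2.03 to -0.47). These levels rest on few cells, since 5 cells held 50.0% of the Gbp2 UMIs and 52.1% of the Gbp5 UMIs in library 1, and 61.0% of the Gbp2 UMIs in library 2. Without each library's 5 highest cells Gbp2 was at 221 and 93.5 CPM and Gbp5 at 87.3 and 11.8 CPM. In library 2 that is no higher than Gbp2 in Kupffer-like cells, at 96.2 CPM without their 5 highest cells.

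Of 8 members at 10 CPM in these cells, Gbp2b, Gbp4 and Gbp5 were at least 2-fold lower in library 2, beside 11.5% of all genes, and none was at least 2-fold higher, beside 6.29%. Gbp7 (112 and 77.7 CPM), Gbp8 (41.0 and 33.3 CPM) and Gbp9 (77.7 and 61.0 CPM) had intervals of the log2 ratio that include 0. The cells passing this gate differed in their markers. Ccr2 was at 1805 CPM in library 1 and 1023 CPM in library 2, Cx3cr1 at 406 and 135 CPM, Ly6c2 at 736 and 1419 CPM and Chil3 at 172 and 424 CPM. Different clusters held these cells, cluster 6 with 117 of the 120 and cluster 8 with 85 of the 97, both unnamed by their markers. The part of this difference in makeup in the Gbp2 and Gbp5 levels was not tested. When lineages were taken from clusters instead, this lineage held 6 and 10 cells, too few for a value.

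**Figure D3:**
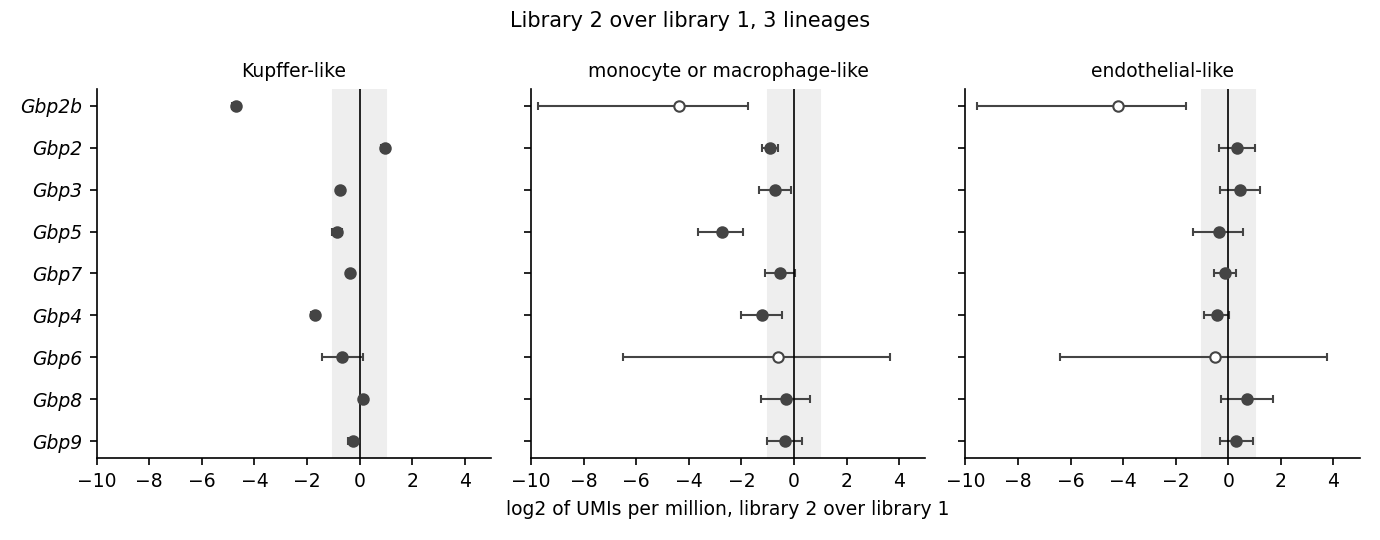
Log2 ratios of CPM (library 2 over library 1) with conditional exact 95% intervals for the 9 genes in 3 lineages; the grey band is within 2-fold, and open points rest on 3 or fewer UMIs in a library. Gbp2 lies right of 0 in Kupffer-like cells (0.96) and left of 0 in monocyte or macrophage-like cells (-0.90), and Gbp2b lies far left in each lineage.

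Endothelial-like cells (284 and 141) had a different order of members. They too lay in different clusters, 281 of the 284 cells in cluster 7 and 138 of the 141 in cluster 11. Gbp7 led with 144 CPM (131 UMIs) in library 1 and 132 CPM (85 UMIs) in library 2, followed by Gbp4 with 123 and 91.4 CPM, whose interval overlaps that of Gbp7 in library 1. The interval of the log2 ratio includes 0 for Gbp2 (44.0 and 55.8 CPM, -0.35 to 1.03) and for the 7 other members apart from Gbp2b. Gbp2b had 26 UMIs (28.6 CPM) in library 1 and 1 UMI (1.55 CPM) in library 2, a log2 ratio of -4.20 (-9.56 to -1.60). It was the 1 member of 8 at 10 CPM that was at least 2-fold lower, beside 13.7% of all genes, and none was at least 2-fold higher, beside 6.14%. The median over the 8 was 0.09, and that over all genes -0.22.

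Outside Kupffer-like cells, Gbp2b was near the level that Kupffer markers had there. In endothelial-like cells the 7 Kupffer markers had 4.68% to 7.25% of their Kupffer-like CPM in library 1 and 8.57% to 19.9% in library 2, and Gbp2b had 9.09% and 12.8%. In monocyte or macrophage-like cells the markers ran from 4.76% to 30.2% and from 6.62% to 24.4%, and Gbp2b had 12.1% and 15.3%. In endothelial-like cells Gbp2b thus lay above all 7 markers in library 1, from 26 UMIs, and within their range in library 2. In monocyte or macrophage-like cells it lay within the range, whose highest marker was Adgre1, and above the marker medians of 6.98% and 9.78%. How much of its level in these 2 lineages was Kupffer cell RNA in the droplets was not tested. Gbp8 was the other member with a low share outside Kupffer-like cells, 14.0% and 21.0% of its Kupffer-like CPM in endothelial-like cells and 29.1% and 21.5% in monocyte or macrophage-like cells. Gbp9, Gbp4 and Gbp7 in endothelial-like cells stood at 138%, 159% and 120% of their Kupffer-like level in library 1 and at 204%, 385% and 140% in library 2.

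**Figure D4:**
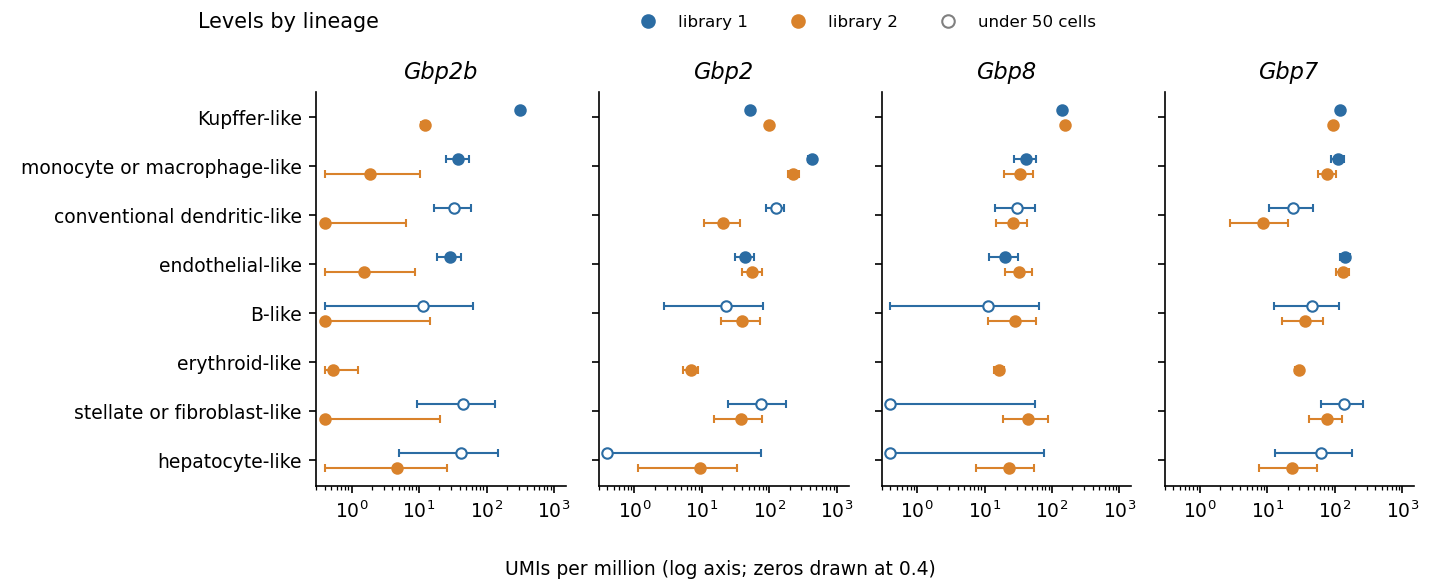
CPM (log axis, zeros drawn at 0.4) of Gbp2b, Gbp2, Gbp8 and Gbp7 in the lineages with at least 50 cells in a library, with exact 95% Poisson intervals. Gbp2b is highest in Kupffer-like cells of library 1 (314 CPM), Gbp2 in monocyte or macrophage-like cells (424 CPM in library 1), and the erythroid-like cells of library 1 are not drawn.

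Smaller lineages are given as levels alone. Conventional dendritic-like cells (31 and 64) had 124 and 20.8 CPM of Gbp2 and 60.5 and 15.6 CPM of Gbp5. Gbp2b had 11 UMIs (33.3 CPM) there in library 1 and 0 UMIs in library 2, which at a floor of 3 UMIs, used here for each count of 0, allows up to 5.21 CPM. In T or natural killer-like cells (27 and 47), Gbp4 (272 and 199 CPM) and Gbp7 (263 and 244 CPM) were the most counted members, and Gbp2b had 3 UMIs and 1 UMI. B-like cells (40 and 71) had 0 UMIs of Gbp2b in library 2, which allows up to 11.9 CPM, and stellate or fibroblast-like cells (32 and 75) had 0, which allows up to 16.4 CPM. In the 70 hepatocyte-like cells of library 2 no member passed 23.3 CPM.

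Erythroid-like cells of library 2 (857 cells) had a family level of 67.3 CPM. Gbp7 made up the largest part, with 276 UMIs or 29.5 CPM, which was 31.4% of its Kupffer-like level. The 7 Kupffer markers had 5.57% to 9.12% of theirs in the same cells, and Gbp2b had 4.42% and Gbp2 6.87%. Gbp7 was thus the member farthest above the share of the Kupffer markers in these cells. Of the 95 erythroid-like barcodes in library 1, 94 were shallow shared barcodes, so no comparison between libraries was made for that lineage.

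Genes of the interferon gamma pathway were described from lists in Kupffer-like cells. Of 8 signalling genes at 10 CPM, 3 were at least 2-fold lower in library 2 and none higher, with a median log2 ratio of -0.76. For this and the lists that follow, 9.14% of all genes were lower and 2.47% higher by that fold, with a median of -0.32. No list was tested against these shares. The receptor chain Ifngr1 had 598 and 259 CPM (log2 ratio -1.21), the transcription factor Irf1 152 and 66.0 CPM (-1.20), and Ciita, the activator of class II genes, 22.8 and 1.80 CPM (-3.67). Ifng itself had 0 UMIs in library 1 and 1 in library 2. Nlrc5, the class I activator, differed little (15.2 and 14.3 CPM). Among 11 targets outside the family, 5 were at least 2-fold lower, with a median of -0.86. H2-Aa, an antigen-presenting class II chain, had 2748 and 106 CPM, a log2 ratio of -4.70, equal in size to that of Gbp2b, while the chemokine Cxcl9 had 22.0 and 21.4 CPM.

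Other interferon-inducible GTPases act on the same vacuoles. Of 5 at 10 CPM, Irgm1 (31.0 and 14.9 CPM), Irgm2 (61.3 and 27.4 CPM) and Ifi47 (105 and 49.9 CPM) were at least 2-fold lower in library 2. Igtp (27.9 and 20.6 CPM) and Iigp1 (113 and 73.5 CPM) were lower by less than 2-fold, and the median was -1.05. Of 14 genes of the type I interferon response, 4 were at least 2-fold lower and none higher, with a median of -0.66. Ifi44 had 37.5 and 5.35 CPM, while the ubiquitin-like Isg15 (21.4 and 31.4 CPM), Rsad2, also called viperin (106 and 140 CPM), and the tetherin gene Bst2 (188 and 262 CPM) were higher in library 2, as Gbp2 was. Of 7 type I signalling genes 1 was at least 2-fold lower, Irf7 at 243 and 54.5 CPM, with a list median of -0.85.

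Inflammasome genes, which act downstream of the family, were mixed. Of 8 at 10 CPM, 1 was at least 2-fold higher and 2 lower, with a median of -0.57. Il18, an inflammasome-processed cytokine, had 58.7 and 195 CPM, a log2 ratio of 1.73 (1.61 to 1.86). Il1b had 143 and 42.4 CPM and the sensor Nlrp3 57.6 and 22.6 CPM. Casp4, the gene of caspase-11, had 22.6 and 12.8 CPM, and Casp1 55.5 and 47.3 CPM. Of the 3 prenyl transferase genes, whose products attach the lipid tail that some family members need for membrane binding, Fnta (21.8 and 20.9 CPM) and Pggt1b (13.4 and 11.4 CPM) reached 10 CPM and were within 2-fold.

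**Figure D5:**
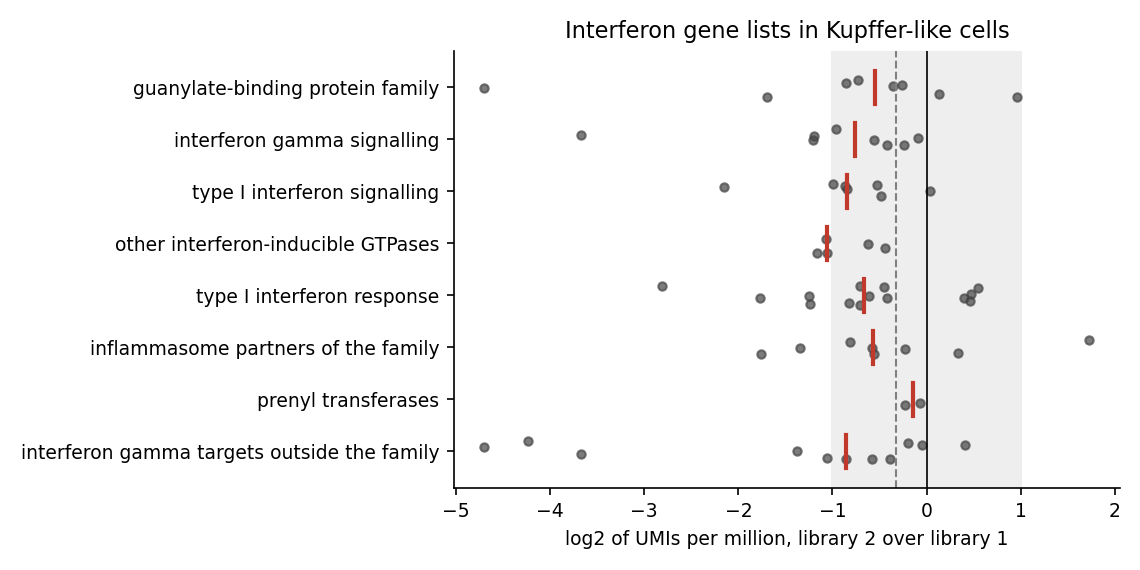
Each point is a gene at 10 CPM or more in Kupffer-like cells, placed by its log2 ratio (library 2 over library 1) in the row of its list; red marks are list medians, the dashed line the median of all genes (-0.32), and the grey band within 2-fold. The family's points run from Gbp2b (-4.70) to Gbp2 (0.96), around a median of -0.54.

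In monocyte or macrophage-like cells the medians were -0.76 for interferon gamma signalling and -1.06 for its targets, against -0.13 for all genes. The type I interferon response was lower still, at -1.22. In that list 7 of 13 genes were at least 2-fold lower, and 7 of 11 interferon gamma targets, beside 11.5% of all genes. Other interferon-inducible GTPases had a median of -0.87, type I signalling -0.47 and inflammasome genes -0.14. No list was tested here either. Cxcl10, an interferon-induced chemokine, had 482 UMIs (681 CPM) in library 1 and 3 UMIs (5.55 CPM) in library 2, a log2 ratio of -6.94 (-9.22 to -5.38). Cxcl9 had 1474 and 287 CPM, although it was even in Kupffer-like cells. The medians in endothelial-like cells were 0.09 for interferon gamma signalling and -0.18 for its targets, close to or above the all-gene median of -0.22. There the type I interferon response had 0.34 and inflammasome genes -0.30.

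Across 12 profiles (lineages in each library) and 7165 genes, the genes most like Gbp2b by Pearson correlation of log2(CPM + 10) were Cxcl13 (0.98), Slc1a3 (0.92), Cd163 (0.89), Cd207 (0.87) and Adamdec1 (0.85). Cxcl13, a B cell-attracting chemokine, had 116 and 2.01 CPM in Kupffer-like cells. Those most like Gbp2 were Tgfbr1 (0.95), Bcl3 (0.94), Ap1s2 (0.94), Tlr2 (0.92) and B4galt5 (0.92). Both lists depend on the measure, since by Spearman correlation only 1 of the 5 genes was shared for each, Cxcl13 for Gbp2b and Ap1s2 for Gbp2. Gbp2b and Gbp2 had a correlation of 0.25 with each other, and Gbp2 had 0.86 with Gbp5, 0.84 with Gbp9 and 0.83 with Gbp3. These are descriptions over profiles that share libraries, depth and background RNA. Gbp2b was at 314 CPM in Kupffer-like cells of library 1 and at no more than 38.2 CPM in any other profile. Its correlations therefore rest mainly on that 1 profile and largely restate the contrast between libraries. The profiles include the erythroid-like cells of library 1, where 94 of 95 were shallow shared barcodes.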

How the data were processed

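Whole-number UMI counts per gene and barcode, for both libraries joined, were deposited by the authors. Cell Ranger 3.0.1, R 3.6.1 and the build GRCm38.p5 were used per the submitters' processing notes. Neither the gene annotation's release nor any equalising of depth between the libraries is stated in the sources at hand. The family and all gene lists were chosen with earlier results of these data known. The text names all 9 members, genes of 7 pathway lists with at least 30 UMIs in a library, and the 5 genes most like Gbp2b and Gbp2. A list is given without 1 gene, which is not reported here.

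The filter kept barcodes with 200 or more genes and no more than 20% of UMIs from mitochondria. The thresholds of the 12 lineage gates were set after seeing the data. Cells in no gate (577 and 1315) or in several (78 and 245) were left out, and no doublet caller was run. UMIs were summed per lineage and library and divided by that class's total (CPM). Shares have Clopper-Pearson, CPM Poisson and ratios conditional exact 95% intervals, and a count of 0 allows 3 UMIs. Sums, gates and intervals were run on simulated data drawn from pooled profiles of gated cells, under the counting model that the intervals assume. Those runs check the code and not the uneven spread of counts over real cells. Motifs were searched in RefSeq windows, with capitals on the plus strand. Intervals came from scipy 1.17.1, sums from numpy 2.4.6 and pandas 2.3.3, clusters from scanpy 1.11.5 with leidenalg 0.10.2, and figures from matplotlib 3.10.9, under python 3.11.15. Alternatives changed the filters, gates, scaling, depth and the definition of lineages (by clusters made without the family).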

Additional observations from a re-analysis of the deposited data

Results flagged for a closer look

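Gbp2 went opposite ways in 2 lineages of the same libraries. Its log2 ratio, library 2 over library 1, was 0.96 in Kupffer-like cells and -0.90 in monocyte or macrophage-like cells (120 and 97 cells). The difference between the lineages was not tested, and the markers of the second lineage differed between the libraries. Barcodes over 20% mitochondrial UMIs, which no comparison above uses, still carried the family when they passed the Kupffer gate (2335 in library 1 and 1089 in library 2). In them Gbp2b had 259 and 7.85 CPM, a log2 ratio of -5.05, and Gbp2 35.9 and 70.5 CPM, a log2 ratio of 0.97.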

How the results depend on the processing

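In Kupffer-like cells, Gbp2b stayed lower and Gbp2 higher in library 2 under each of the 10 alternatives that changed these cells or their scaling and gave a ratio. Scaling by the median ratio of genes at 50 CPM moved Gbp2b to -4.51 and Gbp2 to 1.15, and at most 10% mitochondrial UMIs moved Gbp2 to 0.73. Gbp8 reversed, to a log2 ratio of -0.068, with at most 10% mitochondrial UMIs, and the cause was not tested. Since Gbp2 lies near 2-fold, 1 member instead of 0 was at least 2-fold higher with at most 40% mitochondrial UMIs, with Kupffer markers at 150 per 10000 UMIs (chosen after seeing the data), with median scaling, and with scaling without globin and mitochondrial UMIs. Under median scaling 5.61% of all genes were at least 2-fold lower, against 9.14%. In monocyte or macrophage-like cells Gbp2 ranged from -1.38, with 1 more marker required, to -0.69, with at most 40% mitochondrial UMIs; lineages from clusters gave no value there. No paired analysis was possible because each group has 1 mouse and no library could be tied to one. Of the 5 genes most like Gbp2b, and of those most like Gbp2, 1 was shared by Spearman correlation. With 1 library each, differences between mice, runs and libraries cannot be told apart.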
